A study of Mus musculus with 12 samples.

Results

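The 9 genes of retinoid uptake and signalling described here were followed across single mice: Stra6, Rbp4, Aldh1a1, Aldh1a2, Crabp1, Rara, Rarb, Rxrg and Cyp26b1. They are 9 of the 32494 genes listed for the mouse hypothalamus, and 8 of the 9 had a mean of at least 1 CPM (reads of a gene scaled to the same total in every library) over the 12 libraries, as 15359 of all listed genes did. The set was chosen from the measured values, because Stra6 was already known to differ between the groups. The difference between the groups in these 9 genes is therefore given as a description without a p-value. The tests below concern other genes of the pathway, genes beside Stra6, and variation among mice of 1 group.

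Each library was made from messenger RNA of male mouse hypothalamus, and the samples, which the titles number singly, are read here as 1 mouse each. All 12 mice carried floxed Smc3 (alleles that Cre recombinase can delete) and received tamoxifen, and tissue was taken 5 weeks after it. The labels also give an age of 8 weeks, without the step it refers to. The 7 mice called WT lacked Camk2a-cre/ERT2 and the 5 called cKO carried it, so every mouse of both groups had the floxed alleles and the drug. The titles of both groups also carry the word control, which was not used for grouping. The transgene makes a tamoxifen-dependent Cre under the Camk2a promoter, which is active mainly in forebrain excitatory neurons. A bulk library mixes these neurons with all other cells of the tissue, and in it fewer cells of a type and less RNA per cell cannot be told apart.

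Vitamin A travels in blood as retinol bound to the carrier RBP4, and STRA6 is the membrane receptor that takes retinol from it into cells such as those of the retinal pigment epithelium and of brain barriers. Dehydrogenases oxidise retinol to retinal, and the ALDH1A enzymes turn retinal into retinoic acid. Retinoic acid is carried in the cell by CRABP proteins, switches on genes through RAR and RXR receptor pairs, and is broken down by CYP26 enzymes. In the adult hypothalamus, retinoic acid signalling has been described around the tanycytes that line the third ventricle.

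RAR and RXR pairs bind repeated half-sites, and the best known example lies in front of Rarb, which is itself a target of retinoic acid. The stretches below show that element in Rarb, the same element in the promoter of the breakdown enzyme gene Cyp26a1, and the sequence before the most upstream listed start of Stra6, the gene whose level differed most among the 9. They come from the RefSeq promoter table of build GRCm38.p6, run 5′ to 3′ on the strand of the gene and end before its start site. Capitals mark a match to the direct repeat with a 5-base spacer. The Rarb window is chr14:16575427-16575726 on the minus strand and the match lies 53 to 37 bases before the start. The Cyp26a1 window is chr19:37697558-37697857 on the plus strand, and the match, on the opposite strand, ends 16 bases before the start. The Stra6 window is chr9:58128838-58129137 on the plus strand, of which the 100 bases before the start are shown.
Rarb: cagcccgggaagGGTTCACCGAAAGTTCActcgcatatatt
Cyp26a1: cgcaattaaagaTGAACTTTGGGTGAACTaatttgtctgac
Stra6: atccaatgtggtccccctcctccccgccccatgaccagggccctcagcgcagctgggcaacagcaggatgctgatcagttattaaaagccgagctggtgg

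All 9 genes were in the promoter table, with 18 windows of 300 bases among them. The repeat was searched on both strands as NGNTCANNNNNNGNTCA, with N for any base and overlapping matches allowed. It was in 283 of all 32851 windows (0.861%), and among the 18 in that of Rarb alone. The forms with a 1-base spacer (NGNTCANNGNTCA, in 1.25% of all windows) and a 2-base spacer (NGNTCANNNGNTCA, 1.11%) were in 0 of the 18. None of the 4 listed Stra6 windows held any of the 3 forms. A match in these letters is not a measured binding site, and windows without one say nothing of elements elsewhere.

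Smc3, the floxed gene, was looked at as a check of the labels, and its total was higher, not lower, in the libraries labelled cKO. It was at 76.8 to 85.7 CPM in the libraries labelled WT (mean 81.6 ± 3.14, SD, n = 7) and at 116 to 144 CPM in those labelled cKO (131 ± 10.3, SD, n = 5). Every direction below is therefore that of the libraries labelled cKO. A total per gene does not show which exons its reads came from, so Smc3 does not settle whether the labels are right. Depth was 17.1 to 24.0 M reads for every library except WT 1, which had 68.7 M (M, megareads). A set of 5 libraries from both groups stood apart: WT 1, 4 and 5 and cKO 12 and 13 had the dopamine neuron marker Slc6a3 at 52.6 to 132 CPM and the midbrain marker En1 at 4.51 to 9.09 CPM. The other 7 libraries had Slc6a3 at 0.826 to 1.78 CPM and En1 at 0.000 to 0.248 CPM. WT 11 had the lowest levels of the lateral hypothalamic peptide genes Hcrt (0.372 CPM, against 10.4 to 79.2 elsewhere) and Pmch (1.03 CPM, against 14.4 to 138).

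Stra6, the retinol receptor gene, was higher in every library labelled cKO than in every library labelled WT. Its lowest, median and highest levels among the 7 WT libraries were 2.19, 2.62 and 2.94 CPM. The cKO libraries were at 6.63 (cKO 8), 5.24 (cKO 9), 6.06 (cKO 12), 6.41 (cKO 13) and 5.80 CPM (cKO 14). The group ranges did not overlap, and the gap between them was wider than either range. The mean in the cKO libraries was 6.03 ± 0.542 CPM (SD, n = 5) against 2.60 ± 0.280 in WT (SD, n = 7), a ratio of 2.32. The limma difference of log2(CPM + 1) was 0.97 (SE 0.0769); adding 1 shrinks the differences of genes at low CPM. The log2 fold change given for Stra6 in the authors' deposited table is 1.22. These levels rest on 51 to 180 reads per library.

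The same separation was present on both sides of the division by dopamine neuron markers. Among the 5 libraries with high Slc6a3 and En1, Stra6 was at 2.60 to 2.81 CPM in WT 1, 4 and 5 and at 6.06 and 6.41 CPM in cKO 12 and 13. Among the other 7 libraries it was at 2.19 to 2.94 CPM in WT and at 5.24 to 6.63 CPM in cKO. Leaving out each mouse in turn gave log2 differences from 0.94 to 1.01.

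Stra6 was the only member whose group ranges did not overlap, where the same held for 6.73% of the 15359 genes tested. Of all genes tested, 14.1% passed an adjusted p-value of 0.05 in the limma fit (Benjamini-Hochberg over all genes tested), 6.54% higher and 7.6% lower in cKO. The members are not sorted by that threshold. Because the set was built around Stra6, nothing is read from its being the only member without overlap. The median log2 difference over the 8 members in that fit was -0.09, and that over all tested genes was 0.01.

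**Figure D1:**
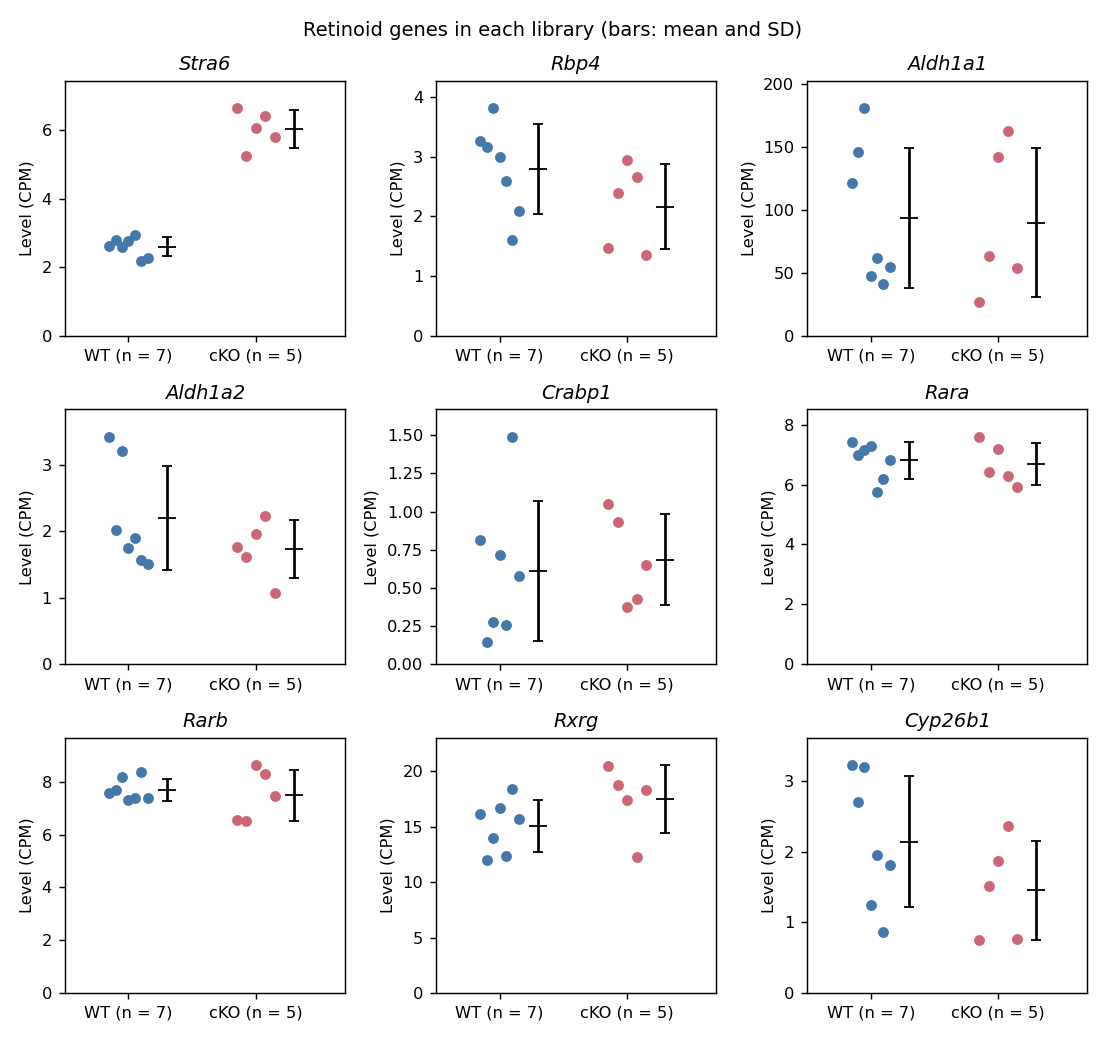
Level of each of the 9 retinoid genes in CPM (vertical axis, starting at 0) in each library, WT in blue (n = 7) and cKO in red (n = 5). Horizontal ticks and bars show the mean and SD. The Stra6 points form separate groups at 2.19 to 2.94 and 5.24 to 6.63 CPM, while the points of the other 8 genes overlap between the groups.

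Rbp4, which encodes the retinol carrier of blood plasma, did not separate the groups. Its lowest, median and highest WT levels were 1.61, 2.999 and 3.81 CPM, and the cKO libraries were at 1.36 to 2.94 CPM. The means were 2.79 ± 0.750 (SD, n = 7) and 2.17 ± 0.712 CPM (SD, n = 5), and the log2 difference of -0.26 had an SE of 0.168. The carrier and its receptor therefore gave log2 differences of opposite sign, with that of the carrier within the spread among mice.

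Aldh1a1, one of the retinal dehydrogenases that make retinoic acid and an enzyme known in a subset of midbrain dopamine neurons, was the most variable member in absolute level. It was at 122, 146 and 181 CPM in WT 1, 4 and 5 and at 142 and 163 CPM in cKO 12 and 13. The other 7 libraries, from both groups, were at 26.7 to 63.6 CPM, with no library between 63.6 and 122. These are the same 5 libraries that stood apart by Slc6a3 and En1. The group means of 93.5 ± 55.7 (SD, n = 7) and 89.96 ± 59.4 CPM (SD, n = 5) each average over both kinds of library, and the log2 difference was -0.13 (SE 0.468). Its sign was not stable, with values from -0.41 to 0.23 when each mouse was left out. The part of dissection or cell makeup in the Aldh1a1 level was not tested.

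Aldh1a2, the dehydrogenase known from the meninges, had WT levels of 1.51 at the lowest, 1.90 at the median and 3.42 CPM at the highest. In the cKO libraries it was at 1.07 to 2.23 CPM. WT 1 and WT 5, at 3.42 and 3.21 CPM, lay above all other libraries. The means were 2.20 ± 0.785 (SD, n = 7) and 1.73 ± 0.436 CPM (SD, n = 5), with a log2 difference of -0.21 (SE 0.160). In WT 1 the mean log2(CPM + 1) of the meningeal fibroblast markers was also the highest of all libraries, at 3.04 against 2.33 to 2.71 elsewhere.

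Crabp1, the binding protein that holds retinoic acid in the cytoplasm, was close to the limit of detection and below the mean needed for a test. It was at 0.148 to 1.49 CPM in WT and at 0.373 to 1.05 CPM in cKO, from 3 to 56 reads per library. Both groups spanned several-fold, and the ranges overlapped. Cyp26b1, the enzyme that removes retinoic acid in brain, was at 0.867, 1.95 and 3.23 CPM (lowest, median and highest) in WT and at 0.755 to 2.37 CPM in cKO. Its log2 difference was -0.35 (SE 0.227), on 13 to 222 reads per library, and the ranges overlapped over most of their length.

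The 3 receptor genes had a smaller ratio of highest to lowest level over the 12 libraries than the 3 enzyme genes. Rara was at 5.75 to 7.43 CPM in WT and at 5.92 to 7.59 CPM in cKO, a log2 difference of -0.02 (SE 0.0763). Rarb, whose promoter holds the repeat printed above, was at 7.30 to 8.39 CPM in WT and at 6.52 to 8.63 CPM in cKO, a log2 difference of -0.04 (SE 0.0739). That ratio was 1.32 for both genes and 1.71 for Rxrg, against 3.21 for Aldh1a2, 4.27 for Cyp26b1 and 6.78 for Aldh1a1. Rxrg, the RXR form with the most restricted pattern in brain, was at 11.98 to 18.4 CPM in WT and at 12.3 to 20.5 CPM in cKO. Its means were 15.1 ± 2.37 (SD, n = 7) and 17.5 ± 3.07 CPM (SD, n = 5), and its log2 difference was 0.20 (SE 0.124). The sign for Rara turned with quantile normalization, at 0.02, and without cKO 14, at 0.01, and its difference was -0.16 with the thalamic list mean as a covariate.

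Levels of different genes were compared per kb of exon, with the union of exons in GENCODE M21 as the length. In the WT libraries Aldh1a1 had the highest mean level, 18.9 ± 11.3 CPM per kb (SD, n = 7), followed by Rxrg at 6.56 ± 1.03. Rbp4 (2.08 ± 0.558), Rara (1.56 ± 0.141) and Rarb (1.46 ± 0.0804) came next, and these 3 neighbours did not differ beyond their spread. Aldh1a2 (0.970 ± 0.347) and Crabp1 (0.763 ± 0.573) also overlapped, and so did Stra6 (0.446 ± 0.0480) and Cyp26b1 (0.401 ± 0.174) at the low end. In the cKO libraries Stra6 was at 1.03 ± 0.0929 CPM per kb (SD, n = 5), with a range of 0.900 to 1.14 that overlapped those of Crabp1 (0.856 ± 0.373), Aldh1a2 (0.763 ± 0.192) and Rbp4 (1.61 ± 0.530, from 1.01). All its values were below those of Rarb in the same libraries, which began at 1.24.

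**Figure D2:**
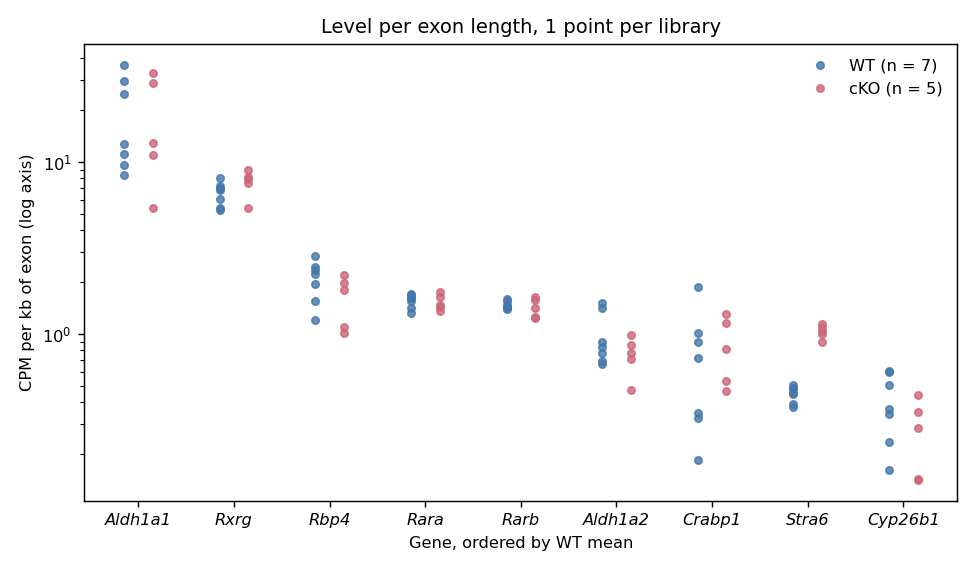
Level per kb of exon (vertical log axis) for each of the 9 genes, ordered by the WT mean, with 1 point per library (WT blue, n = 7, cKO red, n = 5). Aldh1a1 spans 5.41 to 36.7 CPM per kb in 2 sets of points, and Stra6 moves from 0.376 to 0.505 in WT to 0.900 to 1.14 in cKO.

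The genes whose levels ran most like Stra6 over the 12 libraries were named as a description, since that likeness includes the group difference. Pearson's r on log2(CPM + 1) was 0.969 for Map2k4, 0.961 for Nadk, 0.959 for Slc6a7, 0.958 for Ebag9 and 0.958 for Arl2bp. After the group means were removed, r was 0.497, 0.707, 0.508, 0.345 and 0.362 in the same order. Smc3 reached 0.944 over the 12 libraries and -0.165 within groups.

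The rest of the pathway was examined in 84 listed genes that are not members, of which 83 were in the table and 53 passed the CPM minimum. Of those 53, 3 rose and 2 fell in the libraries labelled cKO by the limma fit, which is 9.43% against 14.1% of all genes tested. With each mouse left out 1 or 2 rose and 2 or 3 fell. Median centring or quantile normalization gave 5 that rose and 2 that fell, and the thalamic list mean as a covariate gave 1 of each. The median log2 difference of the 53 was 0.00, beside 0.01 over all tested genes. By role, 1 of 8 genes of uptake and storage, 1 of 11 of retinol and retinal conversion, 1 of 15 receptor cofactors and 2 of 14 listed targets passed. None of the 3 other receptors tested (Rarg, Rxra, Rxrb) passed, nor did the only tested gene of binding (Fabp5) or of breakdown (Cyp2s1). Neither other gene of acid synthesis (Aldh1a3, Aldh8a1) reached the CPM minimum.

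Rlbp1, which encodes a retinal-binding protein of glia, was at 8.36 to 11.3 CPM in WT and rose to 9.54 to 14.6 CPM in cKO, with overlapping ranges (limma log2 difference 0.35, SE 0.0987, adjusted p-value 0.0340). Rdh14, a retinol dehydrogenase gene, was at 22.7 to 25.2 CPM in WT and rose to 25.2 to 30.7 CPM in cKO (0.20, SE 0.0483, limma adjusted p-value 0.0187). With the thalamic marker score as a covariate its difference was 0.23 and the limma adjusted p-value 0.0533, so the call was lost. Rai2, named for its induction by retinoic acid, was at 11 to 12.7 CPM in WT and rose to 12.5 to 15.3 CPM in cKO (0.19, SE 0.0569, limma adjusted p-value 0.0398). Rlbp1 missed the threshold without WT 1, 6, 7, 11 or 15 or cKO 8, 9 or 14 (limma adjusted p-value up to 0.0866). It also did so with the thalamic score (0.40, limma adjusted p-value 0.0842) and without the filter on low values (0.35, 0.0676). Rai2 missed the threshold when any library other than cKO 9 was left out (limma adjusted p-value up to 0.0878). The same held with the thalamic score (0.15, limma adjusted p-value 0.222) and without the filter on low values (0.19, 0.0679).

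Zbtb16, a zinc finger transcription factor gene on the list of targets, had the largest fall of the 53. It was at 14.7, 21.1 and 26.0 CPM (lowest, median and highest) in WT and at 9.78 to 14.2 CPM in cKO, without overlap (limma log2 difference -0.67, SE 0.136, adjusted p-value 0.00936). Ncoa3, a coactivator of nuclear receptors, was at 48.6 to 54.7 CPM in WT and fell to 41.9 to 48.8 CPM in cKO (-0.22, SE 0.0505, limma adjusted p-value 0.0143). With the thalamic marker score as a covariate the difference of Ncoa3 was -0.24 and the limma adjusted p-value 0.0502, again past the threshold no longer. Among genes close to Stra6 in role, Ttr, the plasma partner of RBP4, had means of 3.52 and 3.39 CPM in WT and cKO (limma adjusted p-value 0.916). Lrat, which stores retinol as esters, stayed under 1 CPM in both groups, at 0.310 and 0.297.

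**Figure D3:**
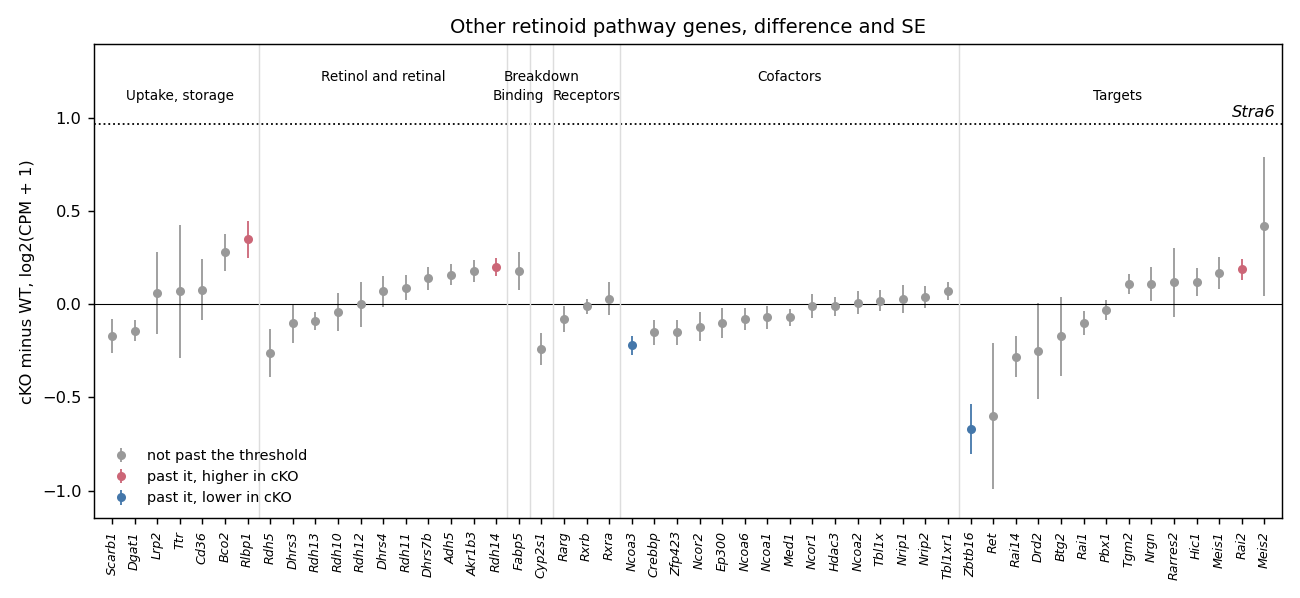
Log2 difference between cKO (n = 5) and WT (n = 7) libraries on log2(CPM + 1), with the SE as a bar, for 52 of the 53 tested pathway genes other than the 9 members, grouped by role. Red and blue mark the 3 genes that rose and the 2 that fell, and the dotted line marks Stra6 at 0.97, above all 52 genes.

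Genes beside Stra6 on chromosome 9 were described after their values had been seen, with their order taken from RefSeq assembly GRCm38.p6. Of the 5 protein-coding genes on either side, 1 of 10 passed the threshold (10%), near the 14.1% of all genes tested. Cyp11a1, which encodes the enzyme that starts steroid synthesis from cholesterol and lies 2 genes away, was at 0.413, 1.38 and 1.60 CPM (lowest, median and highest) in WT and at 2.37 to 6.16 CPM in cKO (limma log2 difference 1.16, SE 0.190, adjusted p-value 0.00396). Its ranges did not overlap, on 10 to 132 reads per library. Among the 5 libraries with high dopamine neuron markers it was at 1.48 to 1.60 CPM in WT and at 5.46 and 6.16 CPM in cKO, above the other libraries of each group (0.413 to 1.38 and 2.37 to 3.63 CPM). Ccdc33, between Cyp11a1 and Stra6, was at 0.838 to 2.98 CPM in WT and at 1.33 to 3.31 CPM in cKO (-0.07, SE 0.199, limma adjusted p-value 0.837). On the other side, Islr (0.11, limma adjusted p-value 0.653) and Islr2 (0.13, 0.695) did not pass. For the other 8 members, 7 of 60 tested neighbours rose (11.7%, beside 6.54% of all genes) and 1 fell (1.67%, beside 7.6%).

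**Figure D4:**
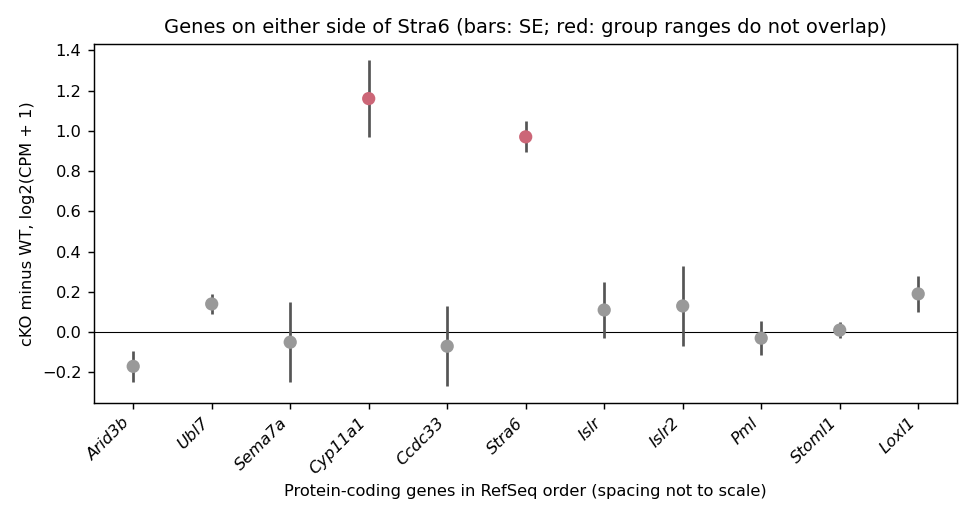
Log2 difference between cKO (n = 5) and WT (n = 7) libraries on log2(CPM + 1), with the SE as a bar, for Stra6 and the 5 protein-coding genes on either side in chromosome order. Red marks genes whose group ranges do not overlap: Cyp11a1 at 1.16 and Stra6 at 0.97, with Ccdc33 at -0.07 between them.

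Variation among mice of 1 group was not used to choose the members, so it was tested. The marker lists were chosen with earlier results of these data known. Deviations of log2(CPM + 1) from the group mean were correlated over 12 libraries with a two-sided permutation test of libraries within groups. Both measures of a pair come from the same library and share its depth and scaling. For Stra6 this test had little to work with. Its SD within a group, 0.280 CPM in WT and 0.542 CPM in cKO, was no larger than the SD that read counting alone gives at its depth, 0.325 and 0.543 CPM, so a relation to other measures could hardly be detected. With the 8 other members, 0 of 8 pairs passed after Benjamini-Hochberg adjustment (smallest adjusted permutation p-value 0.458), and 0 of 8 were under 0.05 before adjustment. The largest were with Crabp1 (r -0.531, rho -0.455, and r -0.132 without the 2 libraries farthest from the median) and with Rxrg (r -0.505, rho -0.434, and -0.322). With 14 lists of cell type markers, 0 of 14 pairs passed (0 unadjusted, smallest adjusted permutation p-value 0.239), under the same limit. Over the 13 lists other than that of dopamine neurons, r was -0.533 to 0.366 and rho -0.531 to 0.371, and r with mural markers was 0.689 without cKO 8 and cKO 12, the 2 farthest. The SD of the other members was 1.5 to 28.6 times that of counting in each group, except for Rara (1.17 and 1.21 times) and, in WT, Rarb (0.757).

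Among the 28 pairs of other members, examined after the values had been seen, 6 passed. Of the 6, 2 involve Aldh1a1, whose libraries fall into 2 clusters, so no r over all 12 is given for it. Crabp1 and Rxrg varied together (r 0.823, rho 0.895, adjusted permutation p-value 0.0035, r 0.886 without the 2 farthest libraries). Rbp4 and Cyp26b1 did so too (r 0.858, rho 0.895, adjusted permutation p-value 0.0179, r 0.795 without the 2 farthest). Both pairs passed whichever library was left out. Crabp1 rested on 3 to 56 reads per library. Aldh1a2 and Cyp26b1 (r 0.801, rho 0.755, adjusted permutation p-value 0.0182, r 0.771 without the 2 farthest) missed the threshold without cKO 13 (0.0653). Rbp4 and Aldh1a2 (r 0.745, rho 0.804, adjusted permutation p-value 0.0353, r 0.725 without the 2 farthest) missed it without WT 5, WT 15, cKO 12, cKO 13 or cKO 14 (up to 0.0963). The 5 libraries with high Slc6a3 and En1 were above the others of their group for all 3 genes of the last 3 pairs. Cyp26b1 was at 2.71 to 3.23 against 0.867 to 1.95 CPM in WT and at 1.87 to 2.37 against 0.755 to 1.52 CPM in cKO. Rbp4 was at 3.16 to 3.81 against 1.61 to 2.999 CPM in WT, and Aldh1a2 at 2.02 to 3.42 against 1.51 to 1.90 CPM, with the same order in cKO. Inside the other 7 libraries r was 0.676 for Rbp4 and Cyp26b1 (rho 0.857, exact permutation p-value 0.167), 0.503 for Rbp4 and Aldh1a2 (rho 0.393, 0.326) and 0.308 for Aldh1a2 and Cyp26b1 (rho 0.179, 0.597). For Crabp1 and Rxrg it was 0.918 there (rho 0.821, exact permutation p-value 0.0347). The part of the division of the libraries in these pairs was not tested beyond those values.

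Of the 126 pairs of a member with a marker list, 20 passed, 9 of them with Aldh1a1 or the dopamine neuron list and 11 with neither. Cyp26b1 was higher in mice with higher oligodendrocyte (r 0.871, rho 0.853, adjusted permutation p-value 0.0142, r 0.819 without the 2 farthest), astrocyte (0.854), endothelial (0.850) and mural markers (0.836). The 5 libraries with high dopamine neuron markers also held the highest oligodendrocyte list means of each group, 7.52 to 7.95 against 6.94 to 7.23 in WT and 7.79 to 7.91 against 7.17 to 7.44 in cKO, as they did the highest Cyp26b1. Inside the other 7 libraries r of Cyp26b1 with oligodendrocyte markers was 0.593 (rho 0.536, exact permutation p-value 0.188). Crabp1 ran with cortical neuron markers (r 0.895, rho 0.874, adjusted permutation p-value 0.00252, r 0.814 without the 2 farthest) and against mural (-0.859), astrocyte (-0.829) and endothelial markers (-0.751). These values rest on 3 to 56 reads of Crabp1 per library, a level too low for the limma test. Rxrg ran against endothelial markers (r -0.840, rho -0.853, adjusted permutation p-value 0.0142, r -0.811 without the 2 farthest) and mural markers (-0.775). Aldh1a2 ran with meningeal fibroblast markers (r 0.782, rho 0.776, adjusted permutation p-value 0.0142, r 0.669 without the 2 farthest). Without WT 1 this pair missed the threshold (adjusted permutation p-value 0.0682), while r was at least 0.655 whichever library was left out. Of the remaining 10 pairs, 4 passed whichever library was left out: Cyp26b1 with oligodendrocyte and endothelial markers and Crabp1 with cortical and mural markers. Rara and Rarb passed with none of the 14 lists by r. Rara ran against thalamic neuron markers at r -0.728 (rho -0.769, r -0.706 without the 2 farthest), with an adjusted permutation p-value of 0.0586 for r and 0.0364 for rho. In all, 8 pairs of unclustered measures missed the threshold by r and passed it by rho, and 1 pair, Crabp1 with endothelial markers, did the reverse. Of these 8 pairs, 4 were of Rbp4, with endothelial (r 0.754), mural (r 0.776), astrocyte (r 0.762) and oligodendrocyte markers (r 0.744), at adjusted permutation p-values of 0.0524 to 0.0586 for r and 0.0364 to 0.0381 for rho. Cyp26b1 with meningeal fibroblast markers (r 0.722) was at an adjusted permutation p-value of 0.0586 for r and 0.0425 for rho. Rxrg was at adjusted permutation p-values of 0.0995 for r and 0.0275 for rho with cortical neuron markers (r 0.670), and of 0.078 and 0.0206 with astrocyte markers (r -0.692).

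The remaining 6 pairs missed the threshold in some of the fits with 1 library left out. Their r kept its sign in all these fits, at sizes of 0.72 to 0.898. Cyp26b1 with astrocyte and Crabp1 with astrocyte markers missed the threshold without WT 11 (adjusted permutation p-values 0.0571 and 0.0642), and Cyp26b1 with mural markers without WT 5 or WT 11 (up to 0.0642). Rxrg with endothelial markers missed it without cKO 13 (0.0839). Crabp1 with endothelial markers missed it without any of WT 4, 5, 7, 11 and 15 and cKO 8, 9, 12 and 13 (up to 0.0778). Rxrg with mural markers missed it without any of WT 4, 5, 6, 7, 11 and 15 and cKO 8, 9 and 14 (up to 0.0835). Inside the 7 libraries with low dopamine neuron markers, the 15 pairs named above kept the sign of r, at sizes of 0.308 to 0.976, and 5 had an unadjusted exact permutation p-value under 0.05. The smallest p-value possible with 7 libraries is 0.00694, or 0.104 for a single pair after adjustment over 15, so such a pair could not pass there. For the 30 pairs that involve Aldh1a1 or the dopamine neuron list the same limit is 0.208, and 3 were under 0.05 before adjustment.

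**Figure D5:**
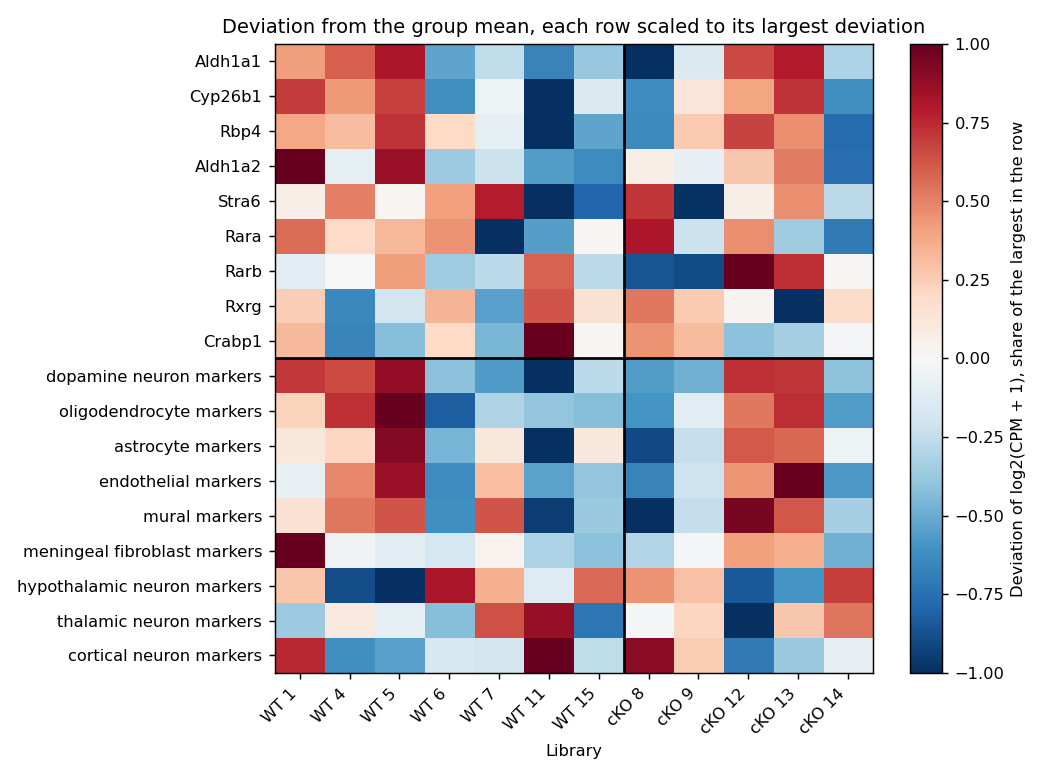
Deviation of log2(CPM + 1) from the group mean in each library (columns, WT left of the line and cKO right of it) for the 9 genes (upper rows) and 9 of the marker lists (lower rows), each row divided by its largest deviation so that the colour runs from -1 to 1. WT 1, 4 and 5 and cKO 12 and 13 are positive for Aldh1a1 and for the dopamine neuron markers.

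Markers of cell types that the tissue could hold were compared between the groups as well, beside 6.54% of all tested genes higher and 7.6% lower in cKO. Of 12 thalamic neuron markers, 4 were lower in cKO by the limma fit and 0 higher, and the mean log2(CPM + 1) of that list was 5.89 to 6.90 in WT and 5.17 to 6.14 in cKO. Of 10 striatal neuron markers, 2 were lower (list mean 4.16 to 4.33 in WT and 4.02 to 4.08 in cKO, without overlap). Of 12 tanycyte markers, 2 were lower, among them Col25a1 (limma log2 difference -0.60, adjusted p-value 0.00935), while the tanycyte list mean overlapped (4.23 to 4.44 and 4.20 to 4.42). Higher in cKO were 1 of 12 endothelial, 1 of 10 oligodendrocyte and 1 of 17 hypothalamic neuron markers, each a single gene in a short list and near the share of all genes. None passed among the 8 ependymal, 7 choroid plexus, 9 meningeal fibroblast, 9 mural, 10 astrocyte, 10 microglia, 7 cortical neuron and 7 dopamine neuron markers tested. No listed marker was at 0 in all libraries, although Rax, which defines tanycytes, was at 0.000 to 0.533 CPM. With the thalamic list mean as a covariate, the hypothalamic list mean, or both, the log2 difference of Stra6 was 0.95, 0.97 and 0.96. The striatal list mean, the only one without overlap between the groups, was not used as a covariate.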

How the data were processed

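Libraries from 7 WT and 5 cKO mice were compared. Per the submitters' processing notes, bcl2fastq, FastQC 0.11.9, STAR 2.7.9a, SAMtools, Subread and featureCounts were used. Their roles, the genome build, the annotation and the strand setting are not given in the sources used here. The authors deposited normalized CPM per gene and, per the file headers, log2 fold changes, p-values and false discovery rates of their own comparison. The deposited CPM were whole multiples of 1 step per library for 100% of values (tolerance 0.01), so whole reads were recovered, and 0 sample columns were left unused. A read is worth 0.0145 to 0.0592 CPM, which sets the precision of low genes.

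CPM are not raw counts, so limma 3.58.1 (R 4.3.3, lmFit and eBayes with trend, two-sided) was run on log2(CPM + 1) for genes averaging 1 CPM or more, with Benjamini-Hochberg adjustment at 0.05. It called 2172 of 15359 genes. On recovered reads edgeR 4.0.16 (quasi-likelihood) called 2209 and DESeq2 1.42.0 called 2747. Tested on simulated data with 200 of 15331 genes changed by 1 log2 unit, the fit recovered 190 (95%) with 6 false calls. The simulation drew each gene independently and held no division of the libraries. Its rates do not carry over to smaller differences, such as those of the named pathway genes. The titles number the samples, read here as 1 mouse each. The labels do not say so, and p-values measure only the spread between these samples.

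The members and gene lists were chosen with earlier results of these data known. Named genes were the 9 members, Smc3, pathway genes past the threshold, the 5 genes most like Stra6, and markers near 0 or moving with a member. The genes beside Stra6, Ttr, Lrat and other pathway genes that missed the threshold were named after their values were seen. Ttr and Rarres2 are in a pathway list and in a marker list. A few genes of these lists are not reported here by name. Correlations used 100000 permutations within groups, over 8, 126 and 28 pairs, and exact permutation inside the 7 libraries with low dopamine neuron markers, added after the values were seen. A measure was treated as clustered when its largest gap exceeded 0.3 of its range with at least 3 libraries on each side. That limit was first set at 0.333, which only the dopamine neuron list met, and was lowered after the values were seen, because Aldh1a1 (0.309) lay just under it. Alternatives were another pseudocount, other scalings, filters and tools, marker scores as covariates, and leaving out each mouse.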

Additional observations from a re-analysis of the deposited data

Results flagged for a closer look

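Within-group values of 88 groups of libraries (the members, the other named genes and the marker lists, in WT and in cKO) were screened for a single library far from the others. By chance about 1 in 20 groups, or 4.4 of 88, would be picked, and 5 were. No value of the 9 retinoid genes was among them. Rai2 was at 11 CPM in WT 5, below the next at 12.1 CPM. Cyp11a1 was at 0.413 CPM in WT 11, where the next WT library was at 1.25 CPM. Ccdc33 was at 3.31 CPM in cKO 8, and the next cKO library was at 1.72 CPM. The choroid plexus marker score (mean log2(CPM + 1) of the list) was 2.89 in cKO 8, above the next at 2.60. The meningeal fibroblast marker score was 3.04 in WT 1, above the next at 2.63, in the library that also had the highest Aldh1a2 level.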

How the results depend on the processing

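The log2 difference of Stra6 kept its sign in all 23 alternatives, at 1.18 with a pseudocount of 0.1 and 1.21 with both edgeR and DESeq2, and at 0.94 to 1.01 with each mouse left out. With the thalamic score added to the limma model 842 genes were called in all, against 2172, and the count was 1158 (without WT 1) to 2302 with each mouse left out. The count of pathway genes called, 5 of 53, was 3 without a filter on low values, 2 with the thalamic score, 9 with the hypothalamic score and 2 without the cofactor and target groups. It was 3 to 5 with each mouse left out, and 3 without WT 1, 6, 7, 15 or cKO 8. With the thalamic score 4 of the 5 missed the threshold. Rdh14 (0.23, limma adjusted p-value 0.0533), Ncoa3 (-0.24, 0.0502) and Rlbp1 (0.40, 0.0842) had differences at least as large as before, and that of Rai2 was smaller (0.15, 0.222). The 2 genes then called were Zbtb16 and 1 gene, higher in cKO, that the main fit had not called. Zbtb16 and Cyp11a1 passed in every alternative run. With the thalamic score the difference of Cyp11a1 was smaller, at 0.8 (limma adjusted p-value 0.036) against 1.16 in the main fit. The sign was not the same in all alternatives for Aldh1a1, Rara and Rarb. The sizes for 4 other members moved with each mouse left out. They were -0.35 to -0.17 for Rbp4, -0.28 to -0.11 for Aldh1a2, -0.47 to -0.24 for Cyp26b1 and 0.14 to 0.31 for Rxrg. With the thalamic score Rbp4 was at -0.49 and Cyp26b1 at -0.58, and with both scores Rxrg was at 0.10. Correlation counts of members with marker lists, 20 as designed, became 9 when the pairs with a clustered measure, a choice made after the values were seen, were left out of the adjustment, and were 14 to 26 with each mouse left out. Those of other member pairs, 6, became 12 with quantile normalization and 4 without clustered pairs, and were 4 to 10 (10 without WT 1). The median log2 difference of all genes was 0.009, and 0.023 with median centring or quantile normalization. The balance of directions over all genes turned with the scaling. The main fit called 1004 higher and 1168 lower in cKO, median centring 1377 and 1054, and quantile normalization 1036 and 1004. No paired analysis was possible because the groups share no mouse number. Crabp1 had the fewest reads of the 9 members, with 3 to 56 per library. Depth also limits Stra6, whose spread was 0.862 times that of counting in WT and 0.998 times in cKO.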
